A study of Mus musculus with 6 samples.

Results

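The regions described here are 143 bases wide and lie outside protein-coding genes, over 2.5 kb and at most 100 kb from the nearest gene end. They were chosen by width and position alone, on mm10 coordinates and RefSeq gene spans of GRCm38. There were 1135 of them, 17.5% of the 6502 regions in the deposited list and 35.4% of its 3210 regions of that width. The list came from ATAC-seq, in which a transposase cuts accessible chromatin, of basal stem cells sorted from the prostates of 3 naive and 3 inflamed mice. Sorting left out leukocytes by CD45 and endothelium by CD31 and kept cells with both Sca-1 and CD49f on their surface. The labelled genotype was WT with control treatment in the naive libraries and POET3 in the inflamed ones, whereas the extraction protocol names POET3 mice in both groups. POET3 mice express ovalbumin in the prostate. In the inflamed group, activated splenocytes from OT-1 mice, whose T cells recognise an ovalbumin peptide, were transferred and the prostate was taken 7 days later. Genotype as labelled and inflammation cannot be told apart.

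The list holds coordinates only. From the word "diff" in its name and from edgeR in the submitters' processing notes, it was read as a list of regions that differed between naive and inflamed libraries, but no source gives a direction, a signal or a value per library. No region is therefore described as more or less accessible in inflamed cells, no replicate error can be given, and depth is unknown. The cell identity could not be checked against markers either, because marker genes have no level in the list.

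Regulatory DNA that lies away from genes includes enhancers, which bind transcription factors and can act on a promoter over many kilobases. Accessible chromatin at such sites tends to be more specific to a cell type or state than accessible chromatin at promoters. In epithelial cells AP-1, ETS, GRHL, KLF and p63 proteins bind many such elements, and NF-kB and STAT factors join them when cytokines act. The nearest gene is a label for a distal region and need not be the gene it regulates.

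Only regions that fall in a RefSeq promoter window (250 bases before to 50 after an annotated start) could be read as sequence. Of the 1135 regions, 11 overlapped such a window, in each case that of a long non-coding RNA (lncRNA), and 5 covered the annotated start itself. For 5 regions the window held all 143 bases, and these are shown because they are the members whose whole sequence was at hand. Each is written 5′ to 3′ on the strand of the lncRNA. Of 35 motifs searched on both strands, capitals mark matches to those found in under 6% of the central 143 bases of all 32851 windows. The AP-1 motif was written TGANTCA, found in 4.16% of windows. The GATA motif was AGATAA, found in 5.57% of windows, and the RUNX motif TGTGGTT, found in 2.57%. The GRHL motif was AACCNGTT, found in 1.00% of windows, and the POU motif ATGCAAAT, found in 1.04%. Sequences are from RefSeq, GRCm38.p6.
A530046M15Rik, chr13:15807120-15807262, plus strand: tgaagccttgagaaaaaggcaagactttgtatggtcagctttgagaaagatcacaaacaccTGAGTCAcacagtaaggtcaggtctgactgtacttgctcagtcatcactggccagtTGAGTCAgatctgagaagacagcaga
4930542C21Rik, chr16:38017158-38017300, plus strand: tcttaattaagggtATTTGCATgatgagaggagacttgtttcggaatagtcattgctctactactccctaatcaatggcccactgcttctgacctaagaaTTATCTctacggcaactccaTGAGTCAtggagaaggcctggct
Gm19619, chr5:91283052-91283194, minus strand: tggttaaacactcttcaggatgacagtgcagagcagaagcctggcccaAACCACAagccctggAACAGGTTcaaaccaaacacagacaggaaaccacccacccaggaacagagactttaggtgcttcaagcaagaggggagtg
Gm11468, chr2:166273710-166273852, plus strand: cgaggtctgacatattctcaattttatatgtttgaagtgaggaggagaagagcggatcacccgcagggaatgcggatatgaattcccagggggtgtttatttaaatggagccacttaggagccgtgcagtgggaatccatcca
4930417O13Rik, chr6:125265380-125265522, plus strand: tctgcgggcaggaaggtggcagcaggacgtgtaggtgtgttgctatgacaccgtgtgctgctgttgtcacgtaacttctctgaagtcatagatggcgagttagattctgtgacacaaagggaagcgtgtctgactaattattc

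The AP-1 letters occurred in 2 of these 5 regions. The region at A530046M15Rik held them at 2 places, covered the annotated start of that lncRNA, and lay 77.2 kb from Gli3, which encodes a transcription factor of Hedgehog signalling. The region at 4930542C21Rik also held the GATA and POU letters. The region at Gm19619, 74.1 kb beyond the 3′ end of Btc, the gene of the EGF receptor ligand betacellulin, held the GRHL and RUNX letters. The regions at Gm11468 and 4930417O13Rik held none of the rarer motifs. Among commoner motifs left in lower case, the TEAD letters GGAATG (7.47% of windows) occurred at Gm11468. The SOX letters ACAAAG (9.80% of windows) occurred at A530046M15Rik and 4930417O13Rik, and the E-box letters CACCTG (10.4% of windows) at A530046M15Rik, where they overlap the first AP-1 match. No other motif searched matched in these 5 regions. A match is a run of letters and no measured binding, and 5 regions are too few to describe the other members. GC content of the 5 ran from 44.1% to 51.7%, below the median of 53.1% over the windows.

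The regions lay a median of 23.2 kb from the nearest gene end (quartiles 11.6 and 46.5 kb, range 2.52 to 99.2 kb). Per Mb of sequence at the same distance from genes, they were densest at 10 to 25 kb. There were 1.34 regions per Mb at 2.5 to 5 kb (exact 95% Poisson interval 1.08 to 1.65), 1.52 at 5 to 10 kb (1.29 to 1.77), 1.70 at 10 to 25 kb (1.52 to 1.89), 1.48 at 25 to 50 kb (1.32 to 1.67) and 1.14 at 50 to 100 kb (1.00 to 1.29). The 981 regions of 451 bases in the same flanks stood at 0.953 per Mb at 2.5 to 5 kb and at 1.15 to 1.42 per Mb beyond. Of the 143-base regions 52.6% (597) were within 25 kb of a gene end, against 48.2% (473) of the 451-base regions, a difference of 4.38 percentage points (95% Newcombe interval 0.112 to 8.63). It did not pass the threshold of 0.05 (Fisher's exact test, two-sided, adjusted p = 0.079 over 7 comparisons). Within 10 kb the shares were 22.1% and 21.8% (difference 0.300 percentage points, adjusted p = 0.87). Neighbouring regions are not independent, although the tests and intervals count them so, and intervals cover counting error only.

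**Figure D1:**
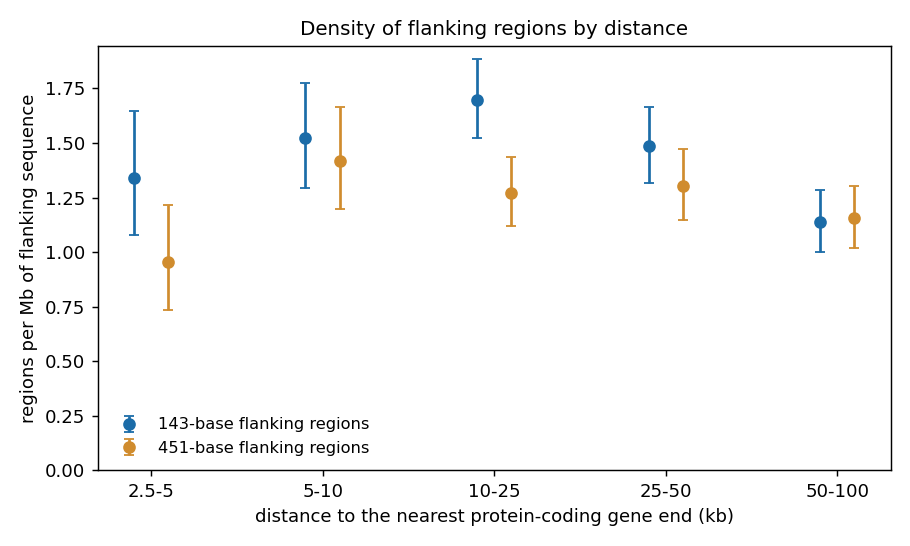
Regions per Mb of flanking sequence (y axis) in 5 classes of distance to the nearest protein-coding gene end (x axis, kb), for 143-base and 451-base regions; points are densities and bars exact 95% Poisson intervals. The 143-base regions peak at 1.70 per Mb at 10 to 25 kb and are at 1.14 per Mb beyond 50 kb, where the intervals of both widths overlap.

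The limits of 2.5 and 100 kb cut through a continuous spread. Just inside the lower limit were regions near Sema4f, Dpt and Pde6h, at 2.52, 2.54 and 2.57 kb. Just outside it were regions near Ccl2, Sqstm1 and Wwc1, at 2.38, 2.41 and 2.47 kb. At the upper limit, regions near Mtap, Nrip1 and Dyrk2 at 98.3, 98.7 and 99.2 kb were in, and regions near Pid1, Zfhx3 and Isl1 at 100.5, 100.9 and 101.2 kb were out.

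The densities of the widths differed most, among 5 classes of gap between genes, in the shortest gaps. The gap between the protein-coding genes on either side had a median length of 120 kb for 143-base and 142 kb for 451-base regions. In gaps under 50 kb there were 1.74 regions of 143 bases per Mb (exact 95% Poisson interval 1.53 to 1.97) and 1.05 of 451 bases (0.888 to 1.23), a ratio of 1.66. In gaps of 250 to 1000 kb both widths stood at 1.17 per Mb. Among 143-base regions 626 (55.2%) had both neighbouring genes within 100 kb, and among 451-base regions 468 (47.7%). That difference of 7.45 percentage points (95% Newcombe interval 3.18 to 11.7) passed the threshold (Fisher's exact test, adjusted p = 0.0023).

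**Figure D2:**
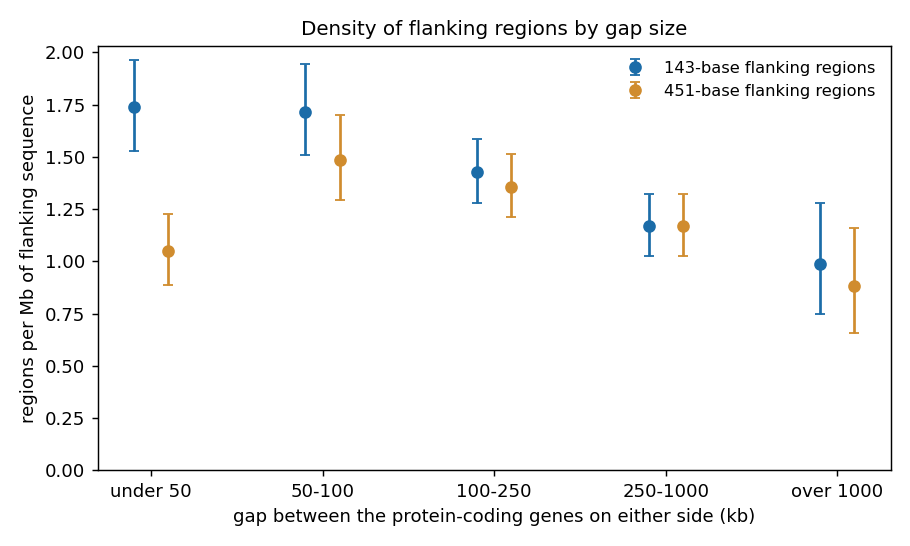
Regions per Mb of flanking sequence (y axis) by the length of the gap between the protein-coding genes on either side (x axis, kb), for both widths; points are densities and bars exact 95% Poisson intervals. The widths stand apart in gaps under 50 kb, at 1.74 and 1.05 per Mb, and coincide at 1.17 per Mb in gaps of 250 to 1000 kb.

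The side of the gene could be read from the strand of the nearest gene for 868 of the 1135 regions. Of these, 469 (54.0%) lay beyond the 5′ end and 399 beyond the 3′ end, while 53.7% of the flanking sequence with known strand lies beyond 5′ ends. The 451-base regions had 51.5% on the 5′ side (difference 2.52 percentage points, 95% Newcombe interval -2.34 to 7.36, Fisher's exact test, adjusted p = 0.37). At 25 to 50 kb the 5′ share of the 143-base regions was 62.3% (exact 95% interval 55.4 to 68.8), beside 47.7% of the 451-base regions. At 2.5 to 5 kb it was 38.7% (27.6 to 50.6), beside 35.3%. The order of the widths was opposite at 10 to 25 kb, with 48.5% of the 143-base regions (42.4 to 54.7) beside 54.5%. At 5 to 10 kb the shares were 57.6% and 54.0%, and at 50 to 100 kb 56.4% and 55.0%. These classes were set beside each other without a test.

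The regions often came close together. Another listed region of any width was centred within 10 kb of 216 of the 143-base regions (19.03%) and of 106 of the 451-base regions (10.8%), a difference of 8.23 percentage points (95% Newcombe interval 5.20 to 11.2, Fisher's exact test, adjusted p = 1.1e-06). The difference was 3.98 percentage points when regions within 10 kb were counted once (11.97% against 7.99%, adjusted p = 0.0084). With a window of 50 kb it was gone (45.02% against 45.16%, adjusted p = 0.97). Of the 216 regions, 182 (84.3%) had a neighbour of their own width. Among adjacent 143-base flanking regions, 25 pairs were centred within 1 kb of each other, 34 at 1 to 5 kb and 32 at 5 to 10 kb. The 451-base flanking regions had 0, 6 and 24 such pairs. No source used here says what the merging step of the authors did to regions that touch, and its part in these spacings was not tested.

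The closest pair was centred 282 bases apart on chromosome 6 (95164152 to 95164294 and 95164434 to 95164576), 34.7 kb beyond the 3′ end of Kbtbd8, an adaptor gene of a ubiquitin ligase. Pairs also lay 349 bases apart near Rdh10, which encodes a retinol dehydrogenase, and 376 bases apart near Skil, which encodes a repressor of TGF-beta signalling (chromosome 3, 31134445 to 31134587 and 31134821 to 31134963, in a gap between Skil and Cldn11). When regions within 10 kb were joined, 80 groups held 2 regions, 4 held 3 and 1 held 4, and 959 regions stood alone. Among the 451-base regions 28 groups held 2, 1 held 3 and 922 stood alone.

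The group of 4 lay on chromosome 14 between Ear6, a ribonuclease gene of eosinophils, and Mettl17, a gene for a mitochondrial methyltransferase-like protein, and spread over 11.6 kb (51866196 to 51877822). A group of 3 spanned only 3.44 kb on chromosome 13 (75786417 to 75789859), 14.1 to 17.4 kb beyond the 3′ end of Ell2, which encodes a transcription elongation factor and responds to androgen. Another 3 regions spanned 5.80 kb on chromosome 18 (36703323 to 36709124), between E230025N22Rik and Cd14, the gene of the lipopolysaccharide co-receptor, from which they were 16.0 to 21.7 kb away. A further 3 lay over 7.08 kb on chromosome 18 (39734977 to 39742059) in the 254 kb gap between Pabpc2 and Nr3c1, the glucocorticoid receptor gene, 216 to 223 kb from Nr3c1. The last of the 5 groups spanned 10.8 kb on chromosome 6 (78294801 to 78305557), 65.4 to 76.0 kb beyond the 5′ end of Reg3b, which encodes an antibacterial lectin.

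The 1135 regions had 963 nearest genes, which is 4.4% of the 21887 protein-coding genes, and 451-base flanking regions had 840 (3.84%). A single region was found at 820 of the 963 genes, 2 regions at 118 and 3 or more at 25. Flanking regions of both widths were found at 123 genes. These were 12.8% of the genes with a 143-base region, beside the 3.84% of all genes with a 451-base one. They were 14.6% of the genes with a 451-base region, beside the 4.4% of all genes with a 143-base one. Genes with longer flanks have more room for regions of either width, and these shares were not adjusted for flank length. There were 4 regions each nearest to Fat1, Mtpn, Sepsecs and Pabpc2, and the other genes described next are among those tied at 3.

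Fat1 encodes a giant protocadherin that restrains YAP in the Hippo pathway. Its 4 regions of 143 bases all lay beyond its 5′ end on chromosome 8, at 7.94, 20.9, 50.2 and 54.8 kb, and the gene body and its edges within 2.5 kb held 4 regions of 451 bases and none of 143. Mtpn, which encodes myotrophin, a regulator of actin capping, had regions on both sides, at 65.4 and 68.7 kb beyond the 5′ end and at 8.64 and 83.7 kb beyond the 3′ end, and none in the gene. Sepsecs, which encodes an enzyme of selenocysteine synthesis, had 4 regions at 9.36 to 29.9 kb, all in the gap towards Lgi2. Slc39a11, a zinc transporter gene, had 3 at 12.6 to 29.8 kb beyond its 3′ end, in the gap whose other side is Sox9, an epithelial progenitor transcription factor gene. Fam13a, which encodes a protein with a GTPase-activating domain, had 3 beyond its 5′ end, at 4.61, 28.9 and 83.8 kb, and 2 regions of 451 bases in the gene. Basp1, which encodes a membrane-bound signalling protein, had 3, and so had the predicted gene Gm30733.

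**Figure D3:**
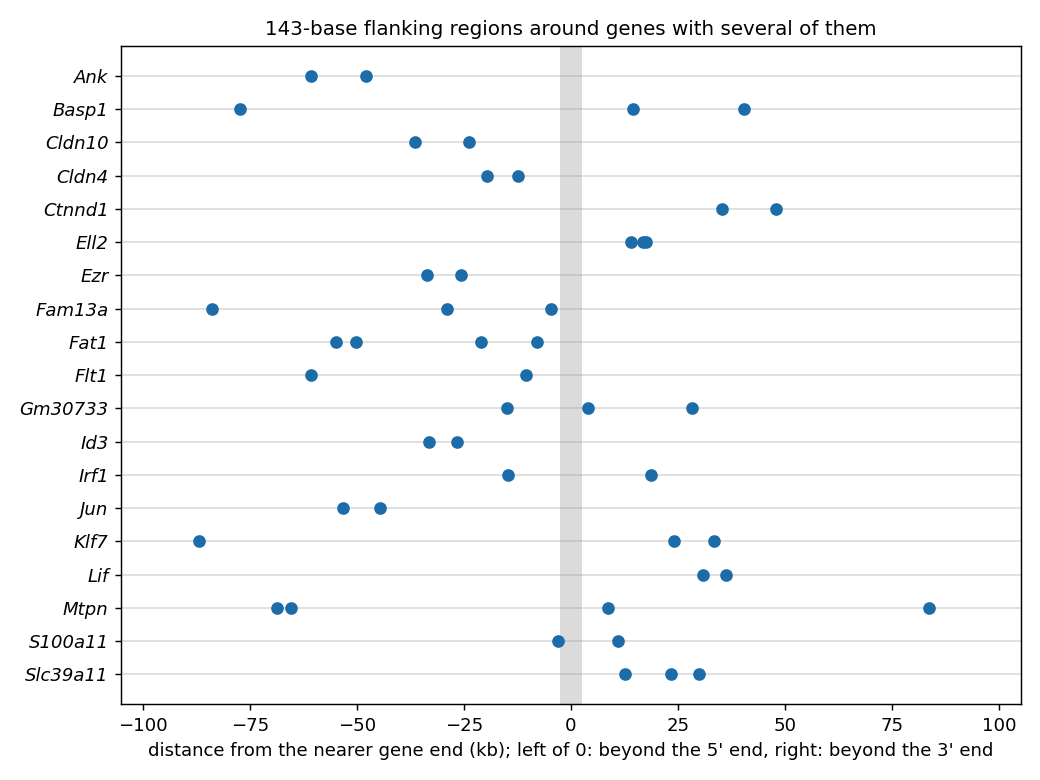
Positions of 143-base flanking regions (points) around the genes named for having the most of them and the list genes with at least 2, where the strand is known; the x axis is the distance in kb from the nearer gene end, 5′ side to the left and 3′ side to the right, with the grey band marking the 2.5 kb excluded on each side. Fat1, Cldn4, Jun and Id3 have points on the 5′ side alone, Ell2 and Lif on the 3′ side alone, and Mtpn and Irf1 on both.

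Counting each gene once, 260 of the 963 nearest genes of 143-base regions (27.0%, exact 95% interval 24.2 to 29.9) held a listed region of any width inside them or within 2.5 kb of their ends. Over all 21887 protein-coding genes the share was 12.1% (2649 genes), and no test was made of the difference. Counted per flanking region, the nearest gene held a listed region inside it or within 2.5 kb of its ends for 307 143-base flanking regions (27.0%) and for 329 of 451 bases (33.5%), a difference of -6.49 percentage points (95% Newcombe interval -10.4 to -2.57, Fisher's exact test, adjusted p = 0.0029). With only gene regions of the same width counted, the difference was -13.3 percentage points (14.7% against 28.0%, adjusted p = 4.5e-13). Where the gene had regions of 1 width only, that width was more often 143 bases beside 143-base than beside 451-base flanking regions. Beside 143-base flanking regions both widths were about equally common (134 and 140), as they were in the list. Inside genes the list had 1509 regions of 143 bases and 1586 of 451 bases, and outside within 2.5 kb it had 175 and 200. It was 143 bases at 134 of 274 such genes counted per 143-base flanking region (48.9%) and at 54 of 284 counted per 451-base flanking region (19.01%), a difference of 29.9 percentage points (Fisher's exact test, two-sided, p = 5.8e-14). With each gene counted once the shares were 49.4% and 20.8%. Regions that share a gene also share its neighbourhood, so the p-value is too small.

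Non-coding genes covered part of the flanks. Of the 1135 regions, 211 (18.6%) were centred inside a non-coding gene span, 202 of them in lncRNA genes, and 14.9% of the flanking sequence lies in such spans. The 451-base regions had 18.96% (difference -0.370 percentage points, 95% Newcombe interval -3.73 to 2.95, Fisher's exact test, adjusted p = 0.87). The centre fell in a promoter window for 9 of 1081 regions of 143 bases and 15 of 946 of 451 bases (0.833% and 1.59%, difference -0.753 percentage points, 95% Newcombe interval -1.84 to 0.216, Fisher's exact test, adjusted p = 0.21), with chromosome 18 left out because the window table used here holds none for it. Leaving out genes with Gm or Rik symbols as flank boundaries brought that comparison past the threshold (0.643% against 2.00%, adjusted p = 0.016).

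The 202 regions fell in 194 lncRNA genes, of which 179 had 1 region, 14 had 2 and Gm31718 had 3, with 8 regions lying in 2 overlapping lncRNA genes and counted in both. Gm31718 spans 104 kb of chromosome 8 (126804707 to 126908370), and its regions were 54.0 to 82.5 kb from Tomm20. The shortest of the genes with 2 regions each were Gm40536, 8030423F21Rik, Gm30115, 1810007D17Rik and Gm32200, of 10.3 to 28.7 kb. The 2 regions in 8030423F21Rik are among the 4 of Sepsecs. Junos, the lncRNA gene beside Jun, is named after its values were seen, as it holds both regions given to Jun.

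Micro-RNA genes were near few of the regions. Within 2.5 kb of a region centre lay Mir3098, Mir21c and, on chromosome 18, Mir6361, whose hairpin overlaps the region at 32880586 to 32880728. The region at Mir21c (chromosome 8, 128278324 to 128278466) was centred 0.170 kb from the hairpin and 80.2 kb from Nrp1, the neuropilin-1 gene. That at Mir3098 (chromosome 6, 125197259 to 125197401) was 1.45 kb from the hairpin and 2.94 kb from Mrpl51. A single 451-base flanking region was that close to a micro-RNA gene.

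Genes from 24 lists of pathways and cell types were looked up as nearest genes. Of 650 list genes, 86 (13.2%, exact 95% interval 10.7 to 16.1) had a 143-base flanking region, beside 4.4% of all protein-coding genes, and 65 (10.0%) had a 451-base one. Genes of the lists have wider flanks, on average 53.02 kb of sequence nearest to them against 36.1 kb for all genes. Per Mb of that sequence the list genes had 3.19 regions of 143 bases, beside 1.43 for all flanking sequence. The lists were chosen with results of these data known, so these shares describe the lists and are no independent evidence. Each list count given below stands beside the same 4.4% of all genes, and no list was tested. The 5 lists of markers of other cell types (T cells, myeloid cells, endothelium, fibroblasts and smooth muscle, neuroendocrine cells and neurons) had 6 of 94 genes (6.38%) and 1.58 regions per Mb. The other 19 lists had 80 of 556 (14.4%) and 3.43 per Mb. The 5 lists were uneven. T cell markers had 3.36 per Mb, endothelial markers 3.19, and fibroblast and smooth muscle markers 0.861. Myeloid and neuronal lists had none. For 451-base regions the densities were 2.26 per Mb in the 5 lists and 2.30 in the other 19.

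**Figure D4:**
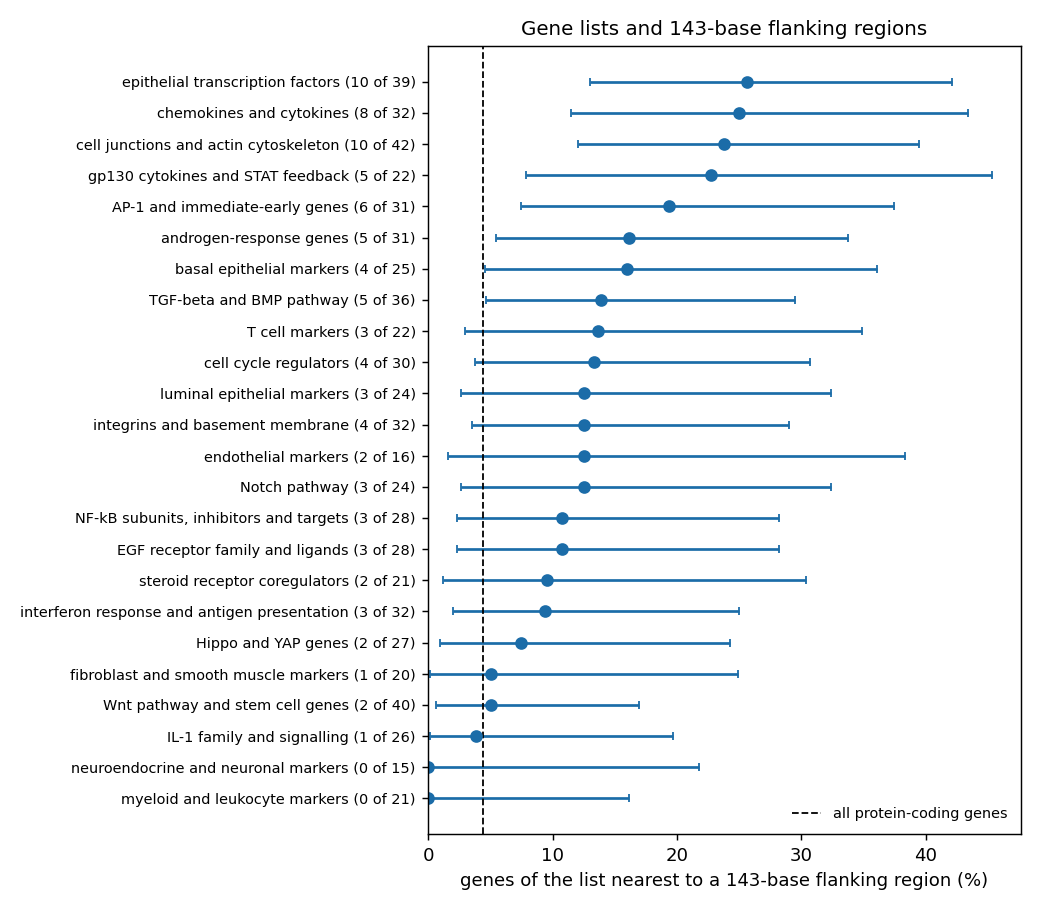
Share of the genes of each list that are the nearest gene of a 143-base flanking region (x axis, percent) for 24 lists (y axis, with counts); points are shares, bars exact 95% binomial intervals and the dashed line the 4.4% of all protein-coding genes. Epithelial transcription factors (10 of 39) and chemokines and cytokines (8 of 32) have the highest shares. Per Mb of flanks these 2 lists have 3.15 and 4.97 regions, beside 3.19 for all lists. A 451-base flanking region is found at 11 of 39 and 5 of 32 of their genes. Flank length differs between lists and no list was tested.

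Of 32 chemokine and cytokine genes 8 had a region, each a single one. Tnfsf10, the TRAIL gene, had it 5.95 kb beyond its 5′ end, and Csf1, the macrophage growth factor gene, 15.9 kb beyond its 5′ end (chromosome 3, 107776337 to 107776479). Cxcl17, a mucosal chemokine gene, had it at 17.6 kb and Ccl2, a monocyte chemokine gene, at 20.3 kb (chromosome 11, 82015205 to 82015347). Csf2, Ccl20, Tnfsf11 (RANKL) and Tslp had theirs at 22.5, 25.2, 75.5 and 92.3 kb.

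Among 22 genes of gp130 cytokines and STAT feedback, 5 had a region. Lif, whose product keeps mouse embryonic stem cells undifferentiated in culture, had 2 at 30.8 and 36.3 kb beyond its 3′ end (chromosome 11, 4303242 to 4303384 and 4308714 to 4308856). The receptor genes Lifr and Osmr are neighbours on chromosome 15, and the gap between them held 1 region nearest to each, at 73.1 kb from Lifr (7017400 to 7017542) and 76.0 kb from Osmr (6950946 to 6951088). Socs5 and Socs6, genes of signalling suppressors, had 1 each at 32.8 and 19.4 kb.

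Of 26 IL-1 genes 1 had a region (3.85%, near the 4.4% of all genes): Tollip, an inhibitory adaptor gene, at 9.16 kb beyond its 5′ end. No 143-base flanking region was nearest to Il1rn. Of 28 NF-kB genes 3 had one. Traf2, an adaptor gene of TNF receptors, had it 2.70 kb beyond its 5′ end (chromosome 2, 25549565 to 25549707), and Bcl3, which encodes a nuclear IkB protein, 9.37 kb beyond its 5′ end. Nfkbiz, which encodes the IkB-zeta cofactor, had 3, at 38.5, 41.0 and 77.4 kb on chromosome 16.

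Of 32 interferon and antigen presentation genes 3 had a region. Irf1, a transcription factor gene of the interferon response, had 1 on each side, 14.8 kb beyond its 5′ end (chromosome 11, 53755151 to 53755293) and 18.6 kb beyond its 3′ end (53796893 to 53797035). Ciita, the class II transactivator gene, had 1 at 14.5 kb.

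Among androgen-response genes 5 of 31 had a region, and in the list of steroid receptor coregulators 2 of 21. Besides Ell2, Nedd4l had 1 at 2.97 kb, Ndrg1, a differentiation gene, 1 at 29.0 kb, and Ank, a phosphate transport gene, 2 at 47.8 and 60.8 kb beyond its 5′ end. Sgk1, a kinase gene induced by steroids, had 1 at 98.3 kb, just inside the limit. Nr3c1 itself had 1 at 58.0 kb, and Ncoa2, a nuclear receptor coactivator gene, 1 at 80.5 kb.

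Of 39 epithelial transcription factor genes 10 had a region, and 11 had a 451-base one. Their density of 143-base regions was 3.15 per Mb of flanks, beside 3.19 for all lists. Klf7 had 3, at 24.0 and 33.3 kb beyond its 3′ end and 87.0 kb beyond its 5′ end. Ehf, an epithelial ETS factor gene, had 2 at 24.2 and 28.6 kb, the second in the gap towards Elf5. Foxq1 had 2 at 10.4 and 51.6 kb, Klf4 1 at 9.38 kb (chromosome 4, 55541784 to 55541926) and Cebpa 1 at 6.03 kb. The genes Hes1, Zeb2, Etv6, Klf5 and Sox2 had 1 each at 22.8 to 95.5 kb. Of 31 AP-1 and immediate-early genes 6 had one. Jun had 2 beyond its 5′ end, at 44.7 and 53.3 kb (chromosome 4, 95096807 to 95096949 and 95105442 to 95105584), and Dusp5, Myc, Ier3, Batf3 and Ier5 had 1 each at 11.9 to 45.2 kb.

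Of 25 basal markers 4 had a region: Krt14, the metalloproteinase gene Mmp10 at 16.5 kb, the integrin gene Itgb1 at 18.8 kb and Egfr at 35.3 kb beyond its 5′ end. Krt5, Trp63 and Itga6, which encodes CD49f, had none of this width. Of 24 luminal markers 3 had one. Cldn4, a claudin gene, had 2 in the gap towards Cldn3, at 12.4 and 19.6 kb beyond its 5′ end (chromosome 5, 134959256 to 134959398 and 134966466 to 134966608). Cldn10 had 2 at 23.7 and 36.4 kb beyond its 5′ end, and Krt19 had 1 at 13.7 kb.

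Junction and cytoskeleton genes had the highest density of the lists, with 14 regions at 10 of 42 genes, or 8.05 per Mb of their flanks. S100a11 had 2, at 2.93 kb beyond its 5′ end and 11.1 kb beyond its 3′ end on chromosome 3, and the neighbouring S100a10, which encodes the partner of annexin A2, had 1 at 7.66 kb. Pkp1, a desmosomal plakophilin gene, had 1 at 8.93 kb, Tpm1 1 at 10.8 kb and Cdh1, the E-cadherin gene, 1 at 14.4 kb in the gap towards Cdh3. Ezr and Ctnnd1, which encode ezrin and p120-catenin, had 2 each, S100a6 had 1 at 15.1 kb, and Dsc3, a desmocollin gene, 1 at 55.2 kb. Of 32 integrin and basement membrane genes 4 had one: Itga1, Itgb1, Itgav and Cd9, at 12.2 to 26.4 kb.

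Among growth factor pathways, 5 of 36 TGF-beta and BMP genes had a region. Skil and Id3, an inhibitor of helix-loop-helix factors, had 2 each, and Smad3, Tgfbr2 and Bmp2 had 1 each at 45.4, 46.4 and 72.6 kb. Egfr, Btc and Spry2 were the 3 of 28 genes of the EGF receptor list. The density of that list was 1.28 regions of 143 bases per Mb of flanks, beside 1.43 for all flanking sequence. Regions of 451 bases were found at 7 of its 28 genes, Btc and Spry2 among them. Their density was 3.43 per Mb, beside 1.24 for all flanking sequence. In the Hippo list, Fat1 and Tead1 were marked of 27. The Notch list had 3 of 24, with Notch2 at 14.9 kb, Hes1 and Nrarp. The Wnt list had 2 of 40 (5%, near the 4.4% of all genes), the receptor gene Fzd4 at 19.4 kb and Tcf4. Its density was 0.757 regions per Mb of flanks, beside 1.43 for all flanking sequence. Tcf4 encodes an E protein and is not the Wnt effector gene, which is Tcf7l2. In the cell cycle list 4 of 30 had 1 region each, Ccne1 at 20.6 kb, Cdk6 at 39.7 kb, E2f7 and Ccnd2.

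Of the lists of other cell types, T cell markers had 3 of 22 genes, Ifng, Cd5 and Cd28, at 22.0 to 52.7 kb. Endothelial markers had 2 of 16, Flt1 with 2 regions and Cdh5 with 1. Fibroblast and smooth muscle markers had 1 of 20 (5%, near the 4.4% of all genes), Cspg4 at 7.80 kb. The 21 myeloid and leukocyte markers and the 15 neuroendocrine and neuronal markers had none. Whether cells outside the gate contributed to the list was not tested.

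Over the chromosomes, the 143-base regions differed in share from the 451-base regions on 5 of 21. Chromosome 11 held 67 (5.90%) against 27 (2.75%), or 2.05 and 0.827 per Mb of flanking sequence (Fisher's exact test, adjusted p = 0.0031 over 21 chromosomes). Chromosome 14 held 55 (4.85%) against 25 (2.55%, adjusted p = 0.025), and fell short of the threshold when regions within 10 kb were counted once (adjusted p = 0.12). The order was opposite on chromosome 13, with 46 (4.05%) against 77 (7.85%, adjusted p = 0.0027), on chromosome 10, with 47 (4.14%) against 74 (7.54%, adjusted p = 0.0050), and on chromosome X, with 16 (1.41%) against 51 (5.20%, adjusted p = 1.3e-05). The densest for 143-base regions was chromosome 18, at 2.27 per Mb, and chromosome X had 0.255. None lay on chromosome Y.

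**Figure D5:**
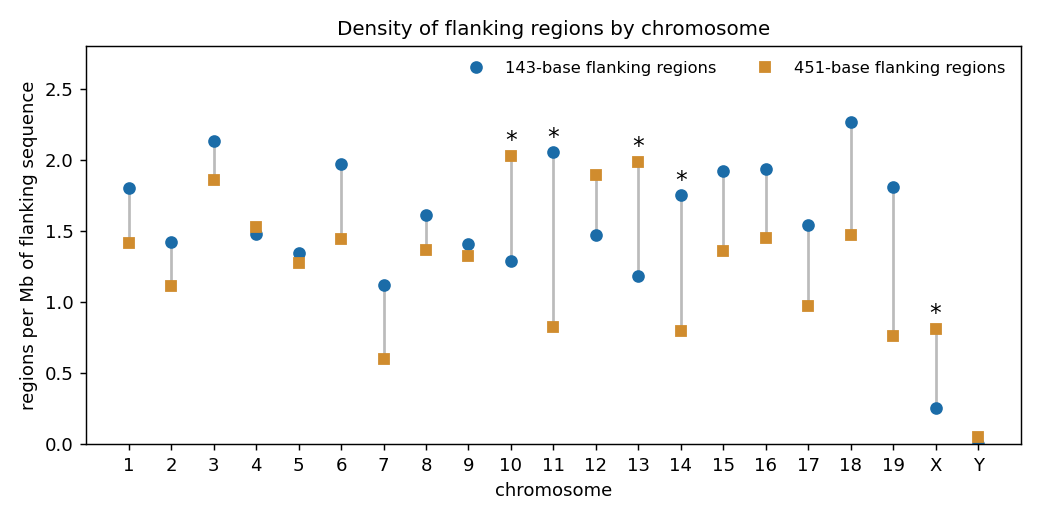
Regions per Mb of flanking sequence (y axis) on each chromosome (x axis) for both widths; circles are 143-base and squares 451-base regions, and asterisks mark chromosomes whose shares differ by Fisher's exact test adjusted over 21 chromosomes. Among chromosomes with an asterisk, circles lie above squares on 11 and 14 and below them on 10, 13 and X. Among those without one, circles lie below squares on 4, 12 and Y and above them on the rest.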

How the data were processed

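Only a merged region list was used, with chromosome, start and end. Its values are coordinates, other than a signal, as deposited. Per the submitters' processing notes, the authors worked on mm10 with edgeR, HOMER 4.8, SAMtools and BWA 0.7.17-r1188. The order of steps, thresholds and filters are not spelled out in the sources used here. The name of the list strings together abbreviations of steps and settings, "rmdup" among them, but they are not explained there. The list gives no value per library, so naive and inflamed libraries were not compared, and edgeR was not run here.

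Starts were counted from 1. Each region was placed by its centre against 21887 protein-coding spans of the RefSeq table of GRCm38.p6 (chromosomes 1 to 19, X and Y). Flanking sequence, 791 Mb in all, was computed from the lengths of the gaps between the first and last gene of each chromosome. A base-by-base count on chromosome 19 gave the same length. Strand came from the RefSeq promoter windows and was known for 79.9% of these genes. No genome sequence was used, so GC content and motif shares of all regions were not run. Shares were compared between 143-base and 451-base flanking regions with Fisher's exact test (two-sided), adjusted by Benjamini-Hochberg over 7 comparisons or 21 chromosomes at a threshold of 0.05. Side of the gene, promoter windows and the widths at the nearest gene were added after the data were seen. Intervals are 95% (Newcombe for differences, exact for shares and densities).

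Named are the 10 genes with the most regions (ties, of which there were many at 3 regions, went to the gene with the closest region, then by symbol), up to 4 genes per list by distance, the 5 largest groups, micro-RNA and lncRNA genes as described, and the regions at each limit. Other list genes, close pairs and absent markers were named after their values were seen, and a few genes within the counts are not reported here by name. Members and lists were chosen with earlier results of these data known. All list genes matched the table by symbol or older symbol. Motifs searched without a match are these, spelled where short. The short NF-kB form was GGAATTCC, the single p63 form CATGTC, ETS proteins had CAGGAAGT and the core CGGAAG, KLF and SP proteins GGGGCGGGG, KLF proteins CCACACCC, long TEAD form ACATTCCA, FOXA proteins TGTTTAC, single steroid receptor form AGAACA, STAT proteins TTCCNGGAA, C/EBP proteins TTGCNNAA, single NFI form TTGGCA, CTCF protein core AGGGGGC, TFAP2 proteins GCCNNNGGC, other E-box forms CAGCTG or else CACGTG, NFY proteins CCAAT and CREB proteins TGACGTCA. By name alone, longer motifs were those of NF-kB, spaced p63, full steroid receptor, IRF, full NFI, NRF2, NRF1, HNF1 and ZBTB33. Python 3.11.15 with scipy 1.17.1 and pandas 2.3.3 was used. The placing of regions was tested on random positions, and Fisher's exact test on simulated counts.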

Additional observations from a re-analysis of the deposited data

How the results depend on the processing

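No paired analysis was possible because values for single libraries are not part of the list, and none could be left out. Of 53 alternative values, 51 kept their direction and their side of the threshold, or for counts stayed within 1.5 times. The excess of 143-base over 451-base regions with a neighbour, 8.23 percentage points within 10 kb, was 9.07 within 5 kb, 3.98 with regions within 10 kb counted once, and reversed to -0.136 within 50 kb (the cause was not tested). The difference in centres within a promoter window, -0.753 percentage points, became -1.35 and passed the threshold without genes of Gm or Rik symbols as boundaries (the cause was not tested). The number of 143-base flanking regions ranged from 884 (upper limit of 50 kb) to 1145 (without Gm and Rik genes). The share within 25 kb of a gene end stayed short of the threshold in each alternative, and its difference fell from 4.38 to 0.300 percentage points with 10 kb in place of 25 kb. List genes with a region numbered 122 when both neighbouring genes were counted and 83 with a lower limit of 5 kb, against 86. The GC and motif alternatives were not run, for want of a genome.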
